A study of Homo sapiens with 8 samples.

Results

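The genes described here are those for which depletion of PAI-1 can be compared between RT112 and UM-UC-3, both established human bladder cancer cell lines. Of 20274 genes with a value above 0 in at least 1 library, 8618 had a mean of at least 5 TPM over the 4 libraries of RT112 and over the 4 of UM-UC-3, and these are called member genes below. TPM is a gene's share of the transcripts in a library, scaled to the same total in each library and corrected for gene length. For each gene, the change with siPAI-1 in RT112 minus the change with siPAI-1 in UM-UC-3, on log2(TPM + 0.1), was the quantity of interest and is called the interaction. A value above 0 means a higher change in RT112. The member genes were chosen by their level alone and took 92.6% to 97.3% of the TPM of a library. Of them, 8500 were protein coding and 61 were lncRNAs.

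Each line was given 100 pmol of siRNA for 72 h, either 3 scrambled sequences mixed together (Scr) or 3 that target the PAI-1 mRNA (siPAI-1). The 4 groups (RT112 Scr, RT112 siPAI-1, UM-UC-3 Scr and UM-UC-3 siPAI-1) had 2 libraries each. The study describes its knock-down as done in independent experiments, more of them than there are libraries a group here. The labels do not say which experiment or culture each library came from, so the tests measure the spread between libraries, which may be technical. Estimated depths were 29.2 to 34.1 M reads, and the median member had about 1938 reads in its lowest library. In these bulk libraries, fewer cells of a kind and less RNA per cell cannot be told apart.

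The lines differed in the markers they expressed. RT112 had 14 of 16 luminal urothelial markers at a mean of 1 TPM or more and UM-UC-3 had 5 of 16. The mesenchymal markers VIM and ZEB1 were at 6.0 to 8.1 and 0.21 to 0.26 TPM in RT112, and at 2852 to 3142 and 43.1 to 48.3 TPM in UM-UC-3. CDH2, SNAI2 and FN1, also on the mesenchymal list, were above 5 TPM in both lines and higher in RT112 Scr than in UM-UC-3 Scr. SNAI2 was at 68.2 and 70.4 TPM in RT112 Scr against 16.4 and 15.7 in UM-UC-3 Scr, and FN1 at 112.6 and 120.4 against 64.3 and 70.6. TWIST2 was at 2.9 to 4.2 TPM in RT112 and 0 in UM-UC-3, while SPARC, TWIST1 and ZEB2 were higher in UM-UC-3. Of other cell types, the fibroblast markers LUM (10.67 to 17.97 TPM in RT112) and COL3A1 (128.85 to 147.66 TPM in UM-UC-3) and the leukocyte list marker CD68 (272.42 to 279.48 TPM in UM-UC-3) were present. COL1A1 was at 5.39 to 6.95 TPM in RT112 and 2.39 to 5 TPM in UM-UC-3. Of 7 fibroblast markers, 2 had a mean of 1 TPM or more in RT112 and 3 in UM-UC-3. Of 7 leukocyte markers, 1 did in each line. Of 5 endothelial markers, 1 did in RT112 and 0 in UM-UC-3. PECAM1, of the endothelial list, was at 0.39 to 1.76 TPM in RT112. The leukocyte marker PTPRC stayed at or below 0.03 TPM and the endothelial marker KDR at or below 0.02 TPM in all 8 libraries.

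PAI-1 is a secreted serpin that blocks the plasminogen activators uPA and tPA and binds vitronectin. It also takes part in the uptake of these complexes through the receptor LRP1. An siRNA lowers the mRNA of its target by guiding its cleavage. The pathways most often met below are sterol and fatty acid synthesis, run by the SREBP factors, the adhesion and YAP/TEAD programme, which follows cell contact and tension, and the metallothioneins, small proteins that bind zinc and copper and are switched on by metal through the factor MTF1.

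The changes in RT112 and in UM-UC-3 showed little relation across member genes. Pearson's r between the change in RT112 and the change in UM-UC-3 was -0.01 and Spearman's rho was -0.03 over the 8618 genes, as a description, since genes are not replicates. With 1 library per group, r ran from -0.05 to 0.05 over the 16 possible choices. The median change was 0.00 in RT112 and -0.01 in UM-UC-3, and the standard deviation over genes was 0.17 and 0.16 on the log2 scale. The interaction had a standard deviation of 0.23 over genes, beside a median standard error of 0.15.

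**Figure D1:**
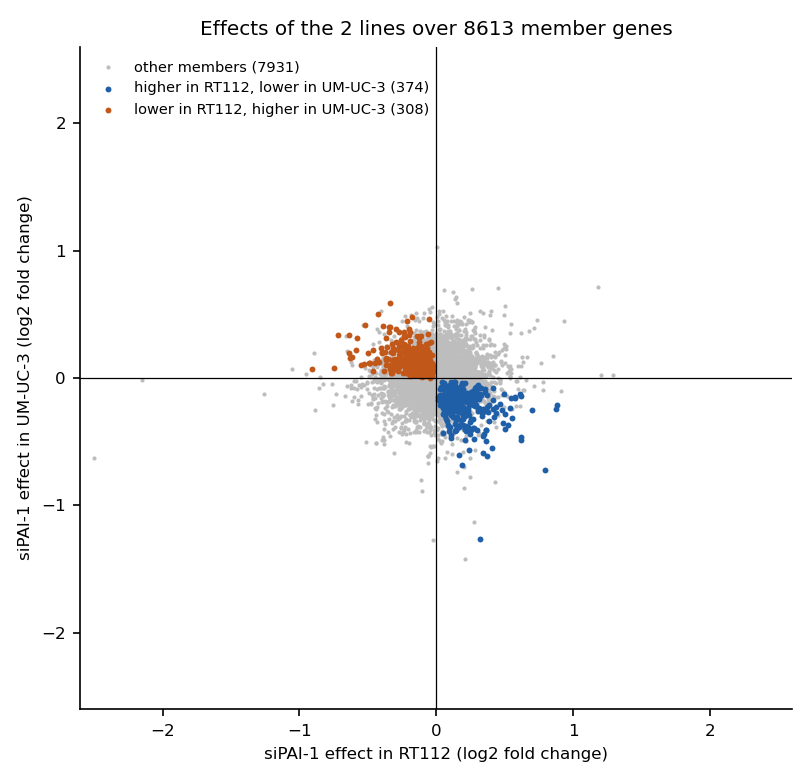
Change with siPAI-1 in RT112 (horizontal, log2 fold change) against that in UM-UC-3 (vertical) for 8613 of the 8618 member genes. The 374 blue and 308 orange genes drawn are those whose siPAI-1 and Scr libraries did not overlap in either line and lay on opposite sides. They lie to the lower right (blue) and upper left (orange) of the centre.

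No member gene passed an adjusted p of 0.05 for the interaction (limma, Benjamini-Hochberg over all 20274 genes). The background is the same, with 0% of all genes tested called. The smallest adjusted p among members was 0.379, and 0.326 in a fit over members alone. At an unadjusted p under 0.05, 383 members (4.44%) had the higher change in RT112 and 275 (3.19%) the lower one. Among all genes tested these shares were 4.0% and 2.76%, so members were called about as often as the background. With RT112 siPAI-1 library 2 left out, 34 members passed the adjusted threshold and 553 had the lower change at an unadjusted p under 0.05. With RT112 siPAI-1 library 1 left out 5 passed the adjusted threshold, with UM-UC-3 Scr library 1 left out 1 did, and with UM-UC-3 Scr library 2 left out 2 did. In those fits the lone library of a group is assumed to vary like the others. An exact permutation test of 2 against 2 libraries cannot go below 0.333.

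Opposite directions were read from the libraries rather than from a p-value. A gene was counted when both siPAI-1 libraries lay above both Scr libraries in one line and below both in the other. No least size of change was asked for, so a margin could be narrow. Of the genes named below, HSP90AB1 and TXNRD1 had changes of 0.00 and 0.04 in UM-UC-3. PSMC1 and ARID2 had 0.01 and 0.03 there, and H1FX had 0.02 in RT112. By this count 375 members (4.35%) were higher in RT112 and lower in UM-UC-3 with siPAI-1, and 308 (3.57%) were lower in RT112 and higher in UM-UC-3. Over all genes tested the shares were 2.91% and 2.24%. With libraries rescaled by their median ratio the 2 member counts were 346 and 365, so which direction was larger depended on the scaling. Genes apart in the same direction in both lines were about as many, 270 members (3.13%) higher in both and 327 (3.79%) lower in both. For the same direction, the shares over all genes tested were not worked out. Opposite and shared directions were therefore met at like rates, and the count alone does not set the opposite genes apart. The size of their changes was mostly small. The median change of the 375 was 0.16 in RT112 and -0.17 in UM-UC-3, and that of the 308 was -0.16 and 0.13. At least 1.25-fold in both lines were 16 of the 375 and 9 of the 308, 1 gene reached 1.5-fold in both, and 0 reached 2-fold.

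ZBTB17, which encodes the zinc finger factor MIZ-1, a partner of MYC, led the genes higher in RT112 and lower in UM-UC-3 by known identity. ZBTB17 (ENSG00000116809.11, chromosome 1, 15941869 to 15976101 on GRCh38) was at 6.3 and 7.4 TPM in RT112 Scr, 11.5 and 9.8 in RT112 siPAI-1, 33.9 and 31.3 in UM-UC-3 Scr and 25.02 and 21.55 in UM-UC-3 siPAI-1. Its libraries did not overlap in either line. The interaction was 1.11 ± 0.19 (SE, n = 2 libraries per group), with an adjusted p of 0.448 from limma. The gene with the largest changes in both lines was RP11-1212A22.4 (ENSG00000233024.7), a clone-named entry without a RefSeq match. It was at 10.6 and 12.4 TPM in RT112 Scr, 18.7 and 21.3 in RT112 siPAI-1, 14.0 and 19.8 in UM-UC-3 Scr and 8.6 and 11.8 in UM-UC-3 siPAI-1. That is 74.1% higher on average in RT112 and a change of -39.7% in UM-UC-3.

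PDDC1 (now GATD1, chromosome 11, 767222 to 777487) had the smallest interaction p of all members, with an adjusted p of 0.379 from limma. It was at 13.8 and 12.6 TPM in RT112 Scr, 16.5 and 18.6 in RT112 siPAI-1, 36.3 and 37.3 in UM-UC-3 Scr and 24.8 and 25.6 in UM-UC-3 siPAI-1. The pairs of libraries were close in each of the 4 groups, and the interaction was 0.95 ± 0.13 (SE). DUSP16, a phosphatase of the stress kinases JNK and p38, was at 12.8 and 14.4 TPM in RT112 Scr against 22.6 and 16.9 with siPAI-1, and at 8.9 and 7.0 in UM-UC-3 Scr against 5.9 and 6.3. GPD1L, related to glycerol-3-phosphate dehydrogenase, was at 17.5 and 17.8 TPM in RT112 Scr against 29.98 and 21.03, and at 11.2 and 7.7 in UM-UC-3 Scr against 6.9 and 7.0. In both genes the RT112 siPAI-1 libraries were unequal and library 1 was the higher. CDPF1, PLEKHG2 and DGCR6 complete the 8 genes named for size, with interactions of 1.08, 0.77 and 0.98. In RT112, siPAI-1 library 2 of PLEKHG2 (14.24 TPM) lay just above the Scr libraries (14.22 and 11.65), and that of DGCR6 (4.8 TPM) just above 4.59 and 4.64. Library 1 was the higher of the pair in both genes, at 19.42 and 7.48 TPM. DGCR6 has a near-identical copy, DGCR6L, so its reads may be shared out uncertainly.

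Among genes lower in RT112 and higher in UM-UC-3, PVT1 is a lncRNA that lies beside MYC. PVT1 was at 55.9 and 73.3 TPM in RT112 Scr, 47.1 and 50.6 in RT112 siPAI-1, 44.7 and 38.3 in UM-UC-3 Scr and 54.6 and 55.2 in UM-UC-3 siPAI-1. The interaction was -0.80 ± 0.19 (SE), with an adjusted p of 0.632 from limma. DCP1A, a subunit of the mRNA decapping complex (chromosome 3, 53283429 to 53347543), was at 9.6 and 9.0 TPM in RT112 Scr, 7.6 and 7.0 in RT112 siPAI-1, 11.7 and 12.3 in UM-UC-3 Scr and 16.9 and 14.9 in UM-UC-3 siPAI-1. The groups of DCP1A stood apart in both lines. TEP1, a telomerase-associated protein, had changes of -0.52 in RT112 and 0.42 in UM-UC-3 on the log2 scale at 3.9 to 8.6 TPM. PDGFA, a growth factor, had changes of -0.35 and 0.36, and RAPH1, which guides actin at the leading edge, had -0.34 and 0.59. EEPD1 and the clone-named CTD-2207P18.2 were the others, at -0.34 and 0.40 and at -0.42 and 0.50.

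CDH2, which encodes N-cadherin, shows how much a value can rest on 1 library. CDH2 (chromosome 18, 27932879 to 28177130) was at 18.2 and 20.6 TPM in RT112 Scr but at 7.7 and 17.9 in the RT112 siPAI-1 libraries, and at 10.6 and 9.2 in UM-UC-3 Scr against 12.6 and 12.4 with siPAI-1. RT112 siPAI-1 library 2 lay just below the Scr range and library 1 far below it. The interaction was -1.06 ± 0.50 (SE), with an adjusted p of 0.778 from limma. Over all 683 opposite members, RT112 siPAI-1 library 1 lay farther from the Scr mean than library 2 in 62.4% of genes. In UM-UC-3 the same share was 48.0%. The part of this library in the single genes was not tested.

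**Figure D2:**
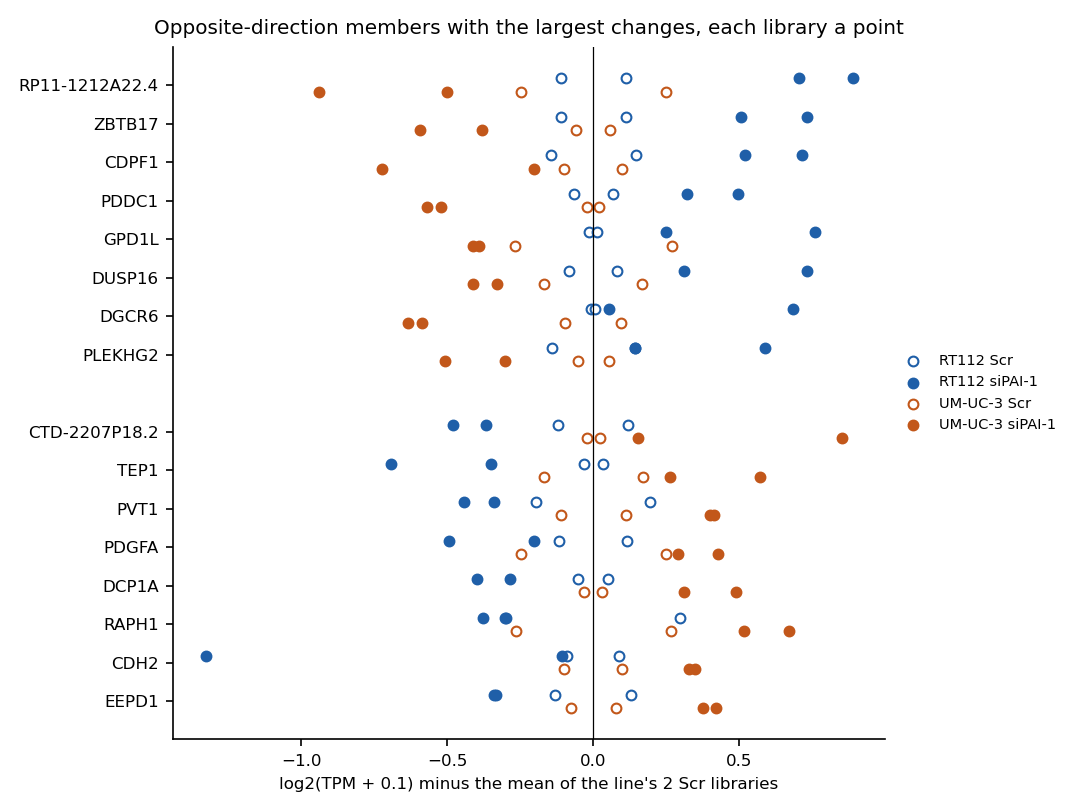
The 16 opposite-direction members with the largest smaller change, as log2(TPM + 0.1) in each library (a point) minus the mean of the line's 2 Scr libraries. Open points are Scr and filled points siPAI-1; in the upper 8 genes the filled blue points (RT112) lie to the right and the filled orange points (UM-UC-3) to the left, and in the lower 8 the reverse.

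The genes with the smallest interaction p were not all opposite. Among the 6 with the higher change in RT112 were MYDGF, a secreted growth factor, PEPD, the peptidase that splits dipeptides ending in proline, and DGAT1, which makes triacylglycerol. MYDGF was at 73.0 and 65.0 TPM in RT112 Scr, 91.5 and 92.2 in RT112 siPAI-1, 129.7 and 134.6 in UM-UC-3 Scr and 115.8 and 107.4 in UM-UC-3 siPAI-1. PEPD was at 54.1 and 55.0, 65.9 and 65.7, 86.7 and 85.8, and 76.9 and 75.7 TPM in the same order. Both genes separated by library in each line. DGAT1 was at 47.6 and 51.2 TPM in RT112 Scr against 63.1 and 61.3 with siPAI-1, and at 57.6 and 52.6 in UM-UC-3 Scr against 44.6 and 44.8. PSMD5, a chaperone of proteasome assembly, had an interaction of 0.76, and IMPA2, an inositol phosphatase, one of 0.77 that came mostly from UM-UC-3, where its change was -0.61 against 0.16 in RT112.

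Of the 6 members with the lower change in RT112, MYCBP, a protein that binds MYC, stood apart by library in one line. It was at 73.9 and 79.3 TPM in RT112 Scr against 82.4 and 76.8 with siPAI-1, and at 26.6 and 27.7 in UM-UC-3 Scr against 45.1 and 42.7. Its libraries overlapped in RT112 and stood apart in UM-UC-3, with changes of 0.06 and 0.69. TARS, the threonyl-tRNA synthetase, had changes of -0.39 in RT112 and -0.08 in UM-UC-3, so its direction was shared. R3HDM1 (-0.64 and 0.19), METTL5, an rRNA methyltransferase (-0.08 and 0.27), and MTF2, a partner of Polycomb complex PRC2 (-0.22 and 0.44), were opposite in sign. SYNJ2BP-COX16 is a readthrough of 2 neighbouring genes (-0.46 and 0.22), and its reads cannot be told apart from those of its parts with certainty. The adjusted p of these 6 ran from 0.379 to 0.540 in limma.

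Of all members, 200 had an interaction of at least 1.5-fold in either direction and 22 of at least 2-fold. Of these 22, 7 were opposite, 12 had an unadjusted p under 0.05 and 10 did not. SDC2 and HOOK2, chosen here after their values were seen, stood apart by library in a single line. SDC2, a heparan sulphate proteoglycan of the cell surface, was at 6.1 and 8.2 TPM in RT112 Scr and 18.6 and 16.2 in RT112 siPAI-1, and at 7.8 and 5.7 in UM-UC-3 Scr against 6.1 and 7.4. HOOK2, an adaptor of the motor dynein, was at 21.7 and 23.9 TPM in RT112 Scr against 22.2 and 23.5, and at 3.7 and 3.4 in UM-UC-3 Scr against 9.0 and 6.0.

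Groups of genes were read next, from 37 pathway lists with 698 members in all. Of the listed members 9.17% were opposite, beside 7.93% of all members, a share close to that of all members. Lists are described by their medians and counts, and the lists were drawn up with earlier results of these data known. Counts of list genes whose libraries stood apart in a single line are descriptions only. The matching share over all members was not worked out, so these counts do not show how unusual a list is. Beside them stand the medians of all members, 0.00 in RT112, -0.01 in UM-UC-3 and 0.01 for the interaction, and the 51.9% of members with an interaction above 0.

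Sterol and fatty acid genes were the groups whose RT112 values were highest relative to UM-UC-3 among lists of 9 or more members, together with HLA class I. Of 22 members of the cholesterol list, 20 had a change above 0 in RT112 and 9 in UM-UC-3, and 21 had an interaction above 0. The medians were 0.17 in RT112, -0.03 in UM-UC-3 and 0.17 for the interaction. In RT112, 13 of the 22 had both siPAI-1 libraries above both Scr libraries and 0 had both below. In UM-UC-3 these counts were 6 and 5. The listed genes span the path, from HMGCS1 near its start to DHCR7 at its end, but not all of them stood apart. HMGCS1 overlapped in RT112, at 112.5 and 125.5 TPM in Scr against 153.5 and 124.2 with siPAI-1. PMVK and NSDHL had changes of -0.03 and -0.01 in RT112.

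Opposite in this list were EBP, MVK and INSIG1. EBP, the sterol isomerase, was at 118.0 and 105.1 TPM in RT112 Scr against 125.7 and 125.9 with siPAI-1, and at 52.7 and 53.6 in UM-UC-3 Scr against 47.5 and 45.8. MVK, the mevalonate kinase, was at 39.5 and 40.6 TPM against 53.1 and 42.0 in RT112, and at 48.5 and 48.0 against 42.3 and 44.3 in UM-UC-3. INSIG1, which holds the SREBP escort in the endoplasmic reticulum when sterol is plentiful, was at 40.3 and 40.3 against 64.9 and 44.5 in RT112 and at 152.6 and 144.6 against 137.8 and 144.3 in UM-UC-3. For MVK and INSIG1 the larger part of the RT112 difference came from library 1. Adjusted p from limma was 0.632 for EBP, 0.716 for MVK and 0.767 for INSIG1. HSD17B7, CYP51A1 and SQLE were higher by library in both lines.

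Among 9 fatty acid genes, 8 had an interaction above 0, and the medians were 0.31 in RT112 and -0.06 in UM-UC-3. SREBF1, which encodes the SREBP-1 factor, was at 108.9 and 95.1 TPM in RT112 Scr against 190.8 and 134.8 with siPAI-1, and at 206.8 and 168.9 in UM-UC-3 Scr against 190.4 and 178.6. SCD, the stearoyl-CoA desaturase, was at 210.4 and 218.5 against 402.4 and 256.4 in RT112, and at 561.7 and 531.0 against 529.4 and 543.3 in UM-UC-3. FASN, fatty acid synthase, was at 224.7 and 250.9 against 310.3 and 278.6 in RT112, and at 157.5 and 132.0 against 136.8 and 129.7 in UM-UC-3. All 3 stood apart in RT112 and overlapped in UM-UC-3, and 0 of the 9 were opposite. ELOVL5, an elongase, went the other way in RT112, with a change of -0.28. With RT112 siPAI-1 library 1 left out, the median interaction of the cholesterol list was 0.11, and with library 2 left out it was 0.28. For the fatty acid list it was 0.12 without UM-UC-3 Scr library 1 and 0.42 without UM-UC-3 Scr library 2.

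**Figure D3:**
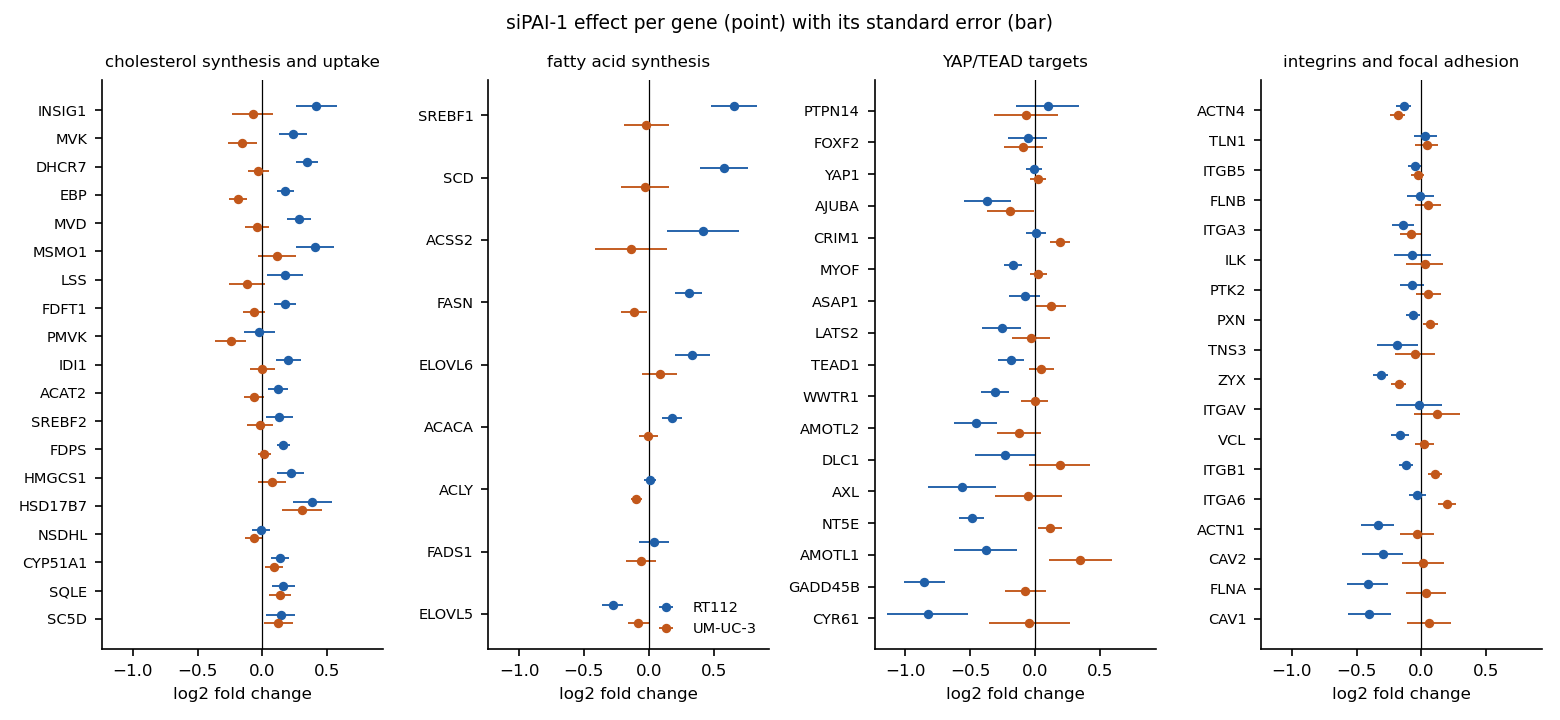
Change with siPAI-1 per gene (log2 fold change) in RT112 (blue) and UM-UC-3 (orange) with its standard error from limma, for genes of 4 lists, ordered by the interaction. In the lipid panels blue points lie to the right of orange ones for the 19 cholesterol genes drawn (21 of all 22 in the list) and 8 of 9 fatty acid genes, and in the YAP/TEAD and integrin panels to the left for 15 of 17 and 17 of 18.

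Nuclear genes of the respiratory chain showed a smaller difference of the same sign, and mitochondrial ones the reverse. Of 42 nuclear genes, 36 had an interaction above 0, with medians of 0.13 in RT112 and 0.01 in UM-UC-3. 5 of the 42 were opposite and all 5 were higher in RT112. CYC1, cytochrome c1, was at 320.3 and 326.7 TPM in RT112 Scr against 369.0 and 353.2, and at 324.0 and 314.2 in UM-UC-3 Scr against 283.1 and 287.0. NDUFV1, a subunit of complex I, was at 194.1 and 193.9 against 213.0 and 213.7, and at 204.3 and 211.7 against 186.7 and 166.5. ATP5G1, SDHA and COX4I1, of the ATP synthase, complex II and complex IV, were the others. All 13 respiratory genes encoded in the mitochondrial genome had an interaction below 0, with medians of 0.08 in RT112 and 0.28 in UM-UC-3. These 13 come from one pair of long transcripts and are not independent of each other. Without RT112 siPAI-1 library 1 the median interaction of the nuclear genes was 0.01 and that of the mitochondrial genes -0.07, and without library 2 they were 0.21 and -0.39. The size of both thus depended on which RT112 siPAI-1 library was used. That of the mitochondrial genes also varied with the RT112 Scr libraries, at -0.32 without library 1 and -0.11 without library 2.

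HLA class I and peptide loading genes differed mainly through UM-UC-3. Of 14 members, 10 had both siPAI-1 libraries below both Scr libraries in UM-UC-3 and 1 had both above, whereas in RT112 the counts were 3 below and 3 above. The medians were 0.02 in RT112, -0.14 in UM-UC-3 and 0.20 for the interaction, and the interaction stayed between 0.14 and 0.27 when any 1 library was left out. TAP1, which carries peptides into the endoplasmic reticulum, was at 26.4 and 26.7 TPM in RT112 Scr against 29.2 and 29.2, and at 13.4 and 13.4 in UM-UC-3 Scr against 10.49 and 10.38. HLA-C was at 397.3 and 401.2 against 485.2 and 424.1, and at 269.9 and 249.9 against 237.3 and 228.7. HLA-B was opposite in the same sense, at 103.2 and 113.0 against 124.4 and 115.7, and at 63.3 and 58.4 against 54.3 and 54.8. HLA genes are alike and very variable in sequence, so reads can be shared between them or lost. ERAP1, which trims peptides, was lower by library in both lines, with changes of -0.44 and -0.51.

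Lysosomal genes resembled the lipid genes on a smaller scale. Of 24 members, 17 had an interaction above 0 and 4 were opposite, all 4 higher in RT112. CTSD, cathepsin D, was at 481.2 and 495.4 TPM in RT112 Scr against 652.9 and 541.7, and at 321.4 and 315.9 in UM-UC-3 Scr against 314.2 and 289.8. PSAP, the precursor of the saposins, had an interaction of 0.21. The median interaction of the list was 0.10, and 0.05 without RT112 siPAI-1 library 1.

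Adhesion genes and YAP/TEAD targets had the opposite pattern, lower in RT112 with little change in UM-UC-3. Among 17 YAP/TEAD members, 15 had a change below 0 in RT112 and 15 an interaction below 0. The medians were -0.26 in RT112 and 0.00 in UM-UC-3. In RT112, 9 of the 17 had both siPAI-1 libraries below both Scr libraries and 0 had both above, while in UM-UC-3 the counts were 3 and 6. NT5E, the ecto-5'-nucleotidase CD73, was at 27.1 and 28.2 TPM in RT112 Scr, 18.03 and 21.39 in RT112 siPAI-1, 515.1 and 457.3 in UM-UC-3 Scr and 525.7 and 525.7 in UM-UC-3 siPAI-1. CYR61, a matricellular protein and a standard YAP target, was at 69.9 and 67.6 against 26.3 and 57.0 in RT112, and at 111.0 and 107.8 against 108.3 and 103.8 in UM-UC-3. GADD45B, a stress-induced gene, was at 12.9 and 11.7 against 6.0 and 7.6 in RT112 and at 29.97 and 24.97 against 27.8 and 24.2 in UM-UC-3. YAP1 itself had changes of 0.00 and 0.02. MYOF and TEAD1 were the other opposite genes, with interactions of -0.20 and -0.23. In UM-UC-3 MYOF counted by a narrow margin, at 238.0 and 240.0 TPM in Scr against 240.1 and 246.8 with siPAI-1. Without RT112 siPAI-1 library 1 the median interaction was -0.07, and without library 2 it was -0.43, so the list kept its sign while its size rested on library 1.

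Integrin and focal adhesion genes followed the same pattern, with 17 of 18 below 0 for the interaction and medians of -0.13 in RT112 and 0.03 in UM-UC-3. ITGB1, the common beta-1 chain, was at 887.8 and 897.1 TPM in RT112 Scr against 781.4 and 866.6, and at 1681 and 1730 in UM-UC-3 Scr against 1833 and 1843. It was the 1 opposite gene of this list. CAV1, caveolin-1, was at 772.0 and 707.8 against 462.9 and 677.6 in RT112, and at 534.2 and 474.3 against 527.1 and 521.9 in UM-UC-3. FLNA and ACTN1, which cross-link actin, had changes of -0.41 and -0.34 in RT112 and 0.04 and -0.03 in UM-UC-3. In these 3 genes library 1 of RT112 siPAI-1 was well below library 2. The median interaction ran from -0.08 to -0.21 when libraries were left out in turn, lowest in size without RT112 siPAI-1 library 1.

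The TGF-beta list had medians of -0.13 and 0.00 and 14 of 18 members below 0 for the interaction. ID3, a BMP target, was at 79.4 and 77.5 TPM in RT112 Scr against 76.6 and 76.4, and at 82.5 and 77.6 in UM-UC-3 Scr against 100.7 and 94.0. SMAD3, which carries the TGF-beta signal to the nucleus, had changes of -0.22 and 0.06. Without RT112 siPAI-1 library 1 this list's median interaction was -0.05. In the junction list DSG2, a desmosomal cadherin, was opposite, at 187.2 and 177.4 against 171.8 and 169.6 in RT112 and at 9.9 and 9.4 against 11.5 and 10.8 in UM-UC-3. SNAI2, an EMT factor, was at 68.2 and 70.4 against 42.9 and 62.8, and at 16.4 and 15.7 against 16.5 and 18.8. Of the matrix genes LAMB1 and COL4A1 were lower in RT112 and higher in UM-UC-3, with interactions of -0.32 and -0.42. LAMA5 was the reverse, with 0.58. In UM-UC-3 LAMB1 counted by a narrow margin, at 47.60 and 56.01 TPM in Scr against 56.11 and 57.53. So did COL4A1, at 23.83 and 24.42 against 24.46 and 27.48. In RT112 COL4A1 was at 48.32 and 47.99 TPM in Scr against 31.55 and 47.05, so its change there came mostly from library 1. The plasminogen system had 0 opposite genes among 10, and LRP1, its uptake receptor, was higher by library in both lines, with changes of 0.35 and 0.32. The summed level of the 9 mesenchymal markers in RT112 was 211.8 to 220.9 TPM in Scr and 119.2 to 200.7 TPM in siPAI-1. It was made up mostly of FN1, SNAI2 and CDH2, of which FN1 is on the matrix list and CDH2 on the junction list. FN1 was at 58.3 TPM in RT112 siPAI-1 library 1 and 108.4 in library 2. In RT112 the means of VIM and ZEB1 did not fall, from 6.9 and 0.225 TPM in Scr to 7.2 and 0.235 in siPAI-1. The summed level was 3280 to 3563 TPM in UM-UC-3 Scr and 3408 to 3412 TPM in UM-UC-3 siPAI-1. Its part in the values of the adhesion, TGF-beta and YAP/TEAD lists was not tested.

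Of 5 ERBB members, 2 were opposite and both were lower in RT112. EGFR, the EGF receptor, was at 72.3 and 71.4 TPM in RT112 Scr against 49.5 and 71.3, and at 36.0 and 35.1 in UM-UC-3 Scr against 43.4 and 42.0. RT112 siPAI-1 library 2 lay at the edge of the Scr range, so EGFR counted as opposite by a narrow margin. HBEGF, one of its ligands, was at 14.7 and 15.3 against 11.2 and 12.1, and at 19.7 and 21.9 against 24.46 and 22.03. ERBB2 had changes of 0.08 and -0.27.

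**Figure D4:**
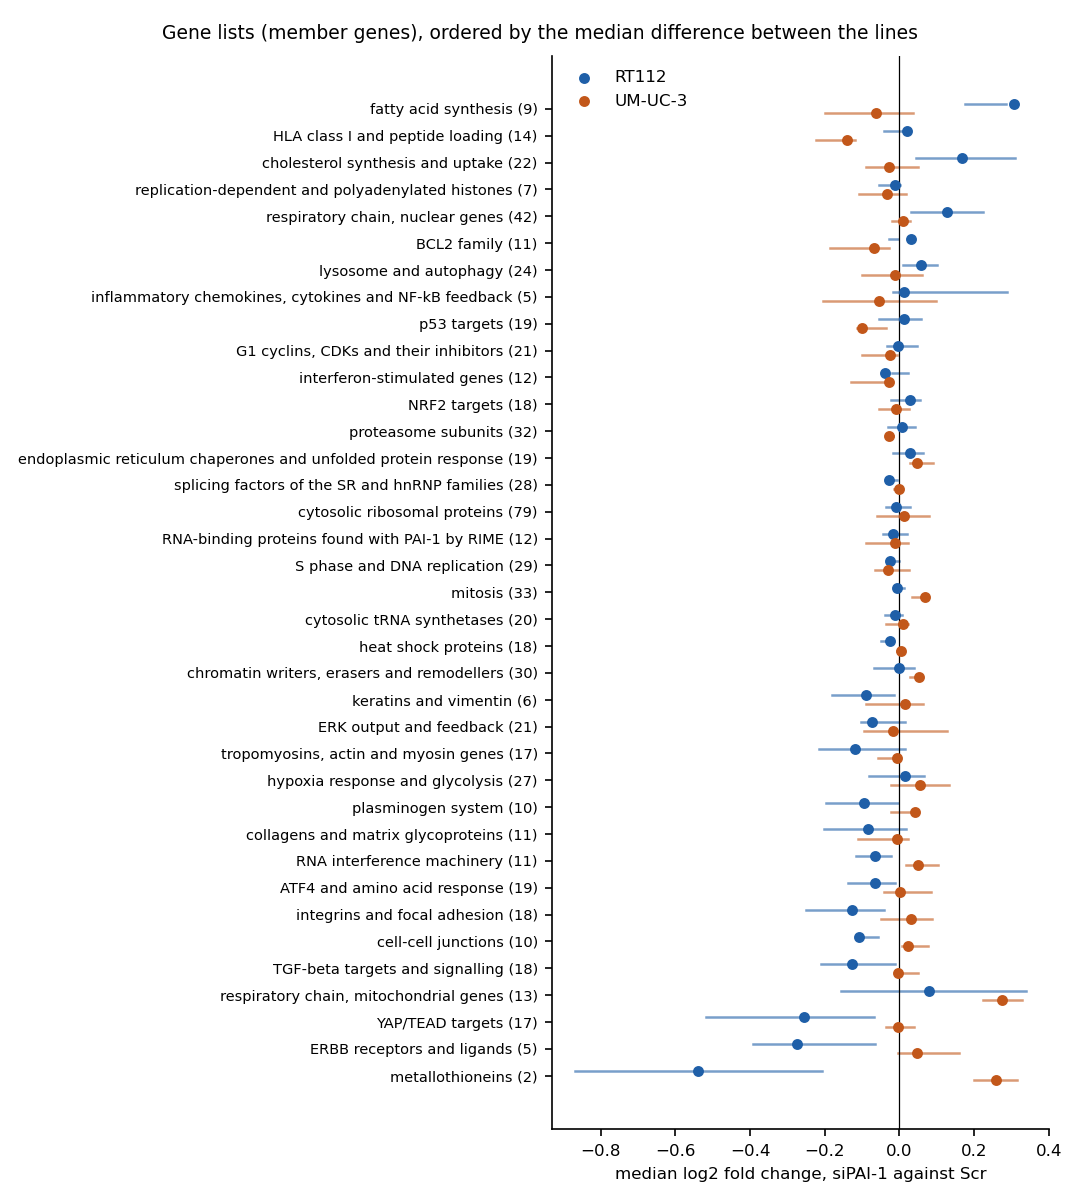
Median change with siPAI-1 of the member genes of 37 lists (number of members in brackets) in RT112 (blue) and UM-UC-3 (orange), on the log2 scale. Points are the values of the fit and lines the range over the 4 pairs of single libraries in a line; the lists are ordered by the median interaction, from fatty acid synthesis (0.25) to the metallothioneins (-0.80), and the RT112 lines are longer than the UM-UC-3 lines for the YAP/TEAD, TGF-beta and metallothionein lists.

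The metallothioneins had the largest difference of any list, on 2 members only. The other 7 listed genes of this family were below 5 TPM in at least one line or not in the tables. MT2A was at 640.5 and 627.1 TPM in RT112 Scr, 346.3 and 521.5 in RT112 siPAI-1, 1952 and 2017 in UM-UC-3 Scr and 2435 and 2504 in UM-UC-3 siPAI-1. MT1X was at 39.98 and 35.86, 22.1 and 32.3, 77.0 and 65.2, and 81.5 and 81.2 TPM in the same order. Both genes were opposite, and in both RT112 siPAI-1 library 1 was the lowest of its line. Interactions were -0.89 ± 0.24 and -0.70 ± 0.25 (SE, n = 2 libraries per group), with adjusted p of 0.632 and 0.694 from limma. The list's median interaction was -0.51 without RT112 siPAI-1 library 1 and -1.08 without library 2.

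Because both metallothionein genes lay on the same side in each line and are known metal-response genes, their promoters are shown here. The RefSeq sequences run from 250 bases before to 50 bases after the start on GRCh38.p14, plus strand, chr16:56608334-56608633 for MT2A and chr16:56682220-56682519 for MT1X. Capitals mark each match, on either strand, of TGCNCNC, the pattern searched for here as the metal response element.
MT2A: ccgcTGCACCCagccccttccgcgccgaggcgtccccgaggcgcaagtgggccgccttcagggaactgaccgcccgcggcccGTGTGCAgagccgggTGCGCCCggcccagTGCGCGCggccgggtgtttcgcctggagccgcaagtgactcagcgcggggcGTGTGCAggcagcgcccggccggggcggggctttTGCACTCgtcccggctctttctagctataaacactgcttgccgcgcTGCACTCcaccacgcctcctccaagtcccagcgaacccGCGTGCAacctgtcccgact
MT1X: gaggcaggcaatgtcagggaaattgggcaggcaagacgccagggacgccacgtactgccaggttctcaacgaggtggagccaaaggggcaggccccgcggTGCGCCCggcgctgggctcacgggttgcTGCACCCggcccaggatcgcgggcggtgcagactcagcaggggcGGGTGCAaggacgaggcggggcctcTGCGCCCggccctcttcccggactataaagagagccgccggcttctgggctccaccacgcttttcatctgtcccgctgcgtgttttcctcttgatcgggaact

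MT2A held 8 matches and MT1X 4. The motif is short, and 55.2% of 27305 promoters of this length held at least 1 match, whereas 2.78% held 4 or more. Among member promoters 3.37% held 4 or more. The sterol response element TCACNCCAC, searched in the same way, was in 1.15% of all promoters and in 1 of 16 cholesterol list promoters, that of SREBF2. A match describes these letters alone and was not tied to binding of a factor.

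Redox and amino acid genes held single opposite members. GCLM, a subunit of glutamate-cysteine ligase, and TXNRD1, thioredoxin reductase, both NRF2 targets, had interactions of -0.46 and -0.18, while the NRF2 list as a whole had a median of 0.03. In the ATF4 list PSAT1 and ASNS, of serine and asparagine synthesis, were lower in RT112 and higher in UM-UC-3, with interactions of -0.43 and -0.38, and CEBPB was the reverse with 0.26. The list's median interaction was -0.14, and -0.02 without RT112 Scr library 1. SARS, the seryl-tRNA synthetase, was opposite at -0.19, while the synthetase list had a median of -0.02.

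Cell cycle lists held opposite members in both directions. LIG1, FEN1 and MCM5, of DNA replication, were higher in RT112 and lower in UM-UC-3, with interactions of 0.26, 0.18 and 0.14, while RFC3, also of DNA replication, was lower in RT112 and higher in UM-UC-3. CENPF, BIRC5 and TPX2, of mitosis, were lower in RT112 and higher in UM-UC-3, with -0.25, -0.26 and -0.13, as was ANLN. SKP2, which marks p27 for degradation, had an interaction of 0.41. The medians of the replication and mitosis lists were both -0.02, close to that of all members. TIGAR was the 1 opposite gene of 19 p53 targets, with 0.28.

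Other lists had few opposite genes. Interferon-stimulated genes had a median of 0.03 and were divided, with IFITM3 at 0.38 and PARP9 at 0.41 but SAMD9 at -0.51. AGO3, an Argonaute protein, was opposite at -0.54 in the RNA interference list, whose median was -0.13 and -0.03 without RT112 siPAI-1 library 1. Of the chromatin list CREBBP, SMARCC1 and ARID2 were opposite, with interactions of -0.39, -0.25 and -0.15 and a list median of -0.03. The proteins found with PAI-1 by RIME had a median of -0.02, with NUDT21 and RBM14 opposite at 0.28 and 0.29. The 79 ribosomal proteins (RPL21 opposite at -0.11), the 32 proteasome subunits (PSMD14, PSMC4 and PSMC1 opposite), the splicing factors (HNRNPA3 and HNRNPA1) and the heat shock proteins (HSP90AB1) had medians of -0.02, 0.02, -0.02 and -0.03. The 7 histone genes had a median of 0.14, and of 0.04 when libraries were centred by GC content. H1FX was opposite at 0.19 and H2AFZ at -0.10. The change of H1FX was 0.02 in RT112 and -0.17 in UM-UC-3. Lists with 0 opposite genes were those for ERK output, hypoxia and glycolysis, the BCL2 family, endoplasmic reticulum chaperones, keratins and vimentin, inflammatory genes, and tropomyosin, actin and myosin genes, at medians of -0.07, -0.10, 0.11, -0.01, -0.06, 0.07 and -0.09. With each library left out in turn, the BCL2 median ran from 0.02 without UM-UC-3 Scr library 1 to 0.20 without UM-UC-3 Scr library 2, and it was 0.02 when libraries were centred by GC content. The hypoxia median ran from -0.16 without RT112 siPAI-1 library 1 to 0.02 without UM-UC-3 Scr library 2, and the ERK median from -0.18 without UM-UC-3 Scr library 1 to 0.01 without UM-UC-3 Scr library 2. The median of the tropomyosin list ran from -0.16 to -0.04, without RT112 siPAI-1 libraries 2 and 1. The G1 cyclin list was at 0.04 and the p53 list at 0.06. Of the 37 pathway lists, 14 turned sign in their median interaction under at least 1 of 19 alternatives, among them the replication, mitosis, interferon, NRF2, ribosomal, proteasome, splicing, chromatin and hypoxia lists, and 23 kept it.

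The opposite genes also differed in base composition, a property the rule did not use. The 375 genes higher in RT112 had a median transcript GC content of 54.7% and a median length of 2876 bases, and the 308 lower in RT112 had 42.5% and 4486 bases, beside 47.4% and 3870 bases for all members. The gradient with GC content was present in UM-UC-3. Across members, Spearman's rho between GC content and the change was -0.34 in UM-UC-3 and 0.03 in RT112, given as a description. Each of the 4 pairs of single libraries in UM-UC-3 gave rho between -0.29 and -0.22, whereas in RT112 the 4 pairs ran from -0.04 to 0.11. Between the 2 Scr libraries of UM-UC-3 rho was 0.06, and between its 2 siPAI-1 libraries it was 0.00.

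With the members in 10 equal steps by GC content, the median change in UM-UC-3 went from 0.06 in the lowest step to -0.09 in the highest, while RT112 went from 0.00 to 0.01. The lowest step held 22 genes higher in RT112 and 51 lower, and the highest held 73 and 5. When each library was centred within steps of GC content, a choice made after seeing the data, 321 and 285 members were opposite, and the median interaction was 0.16 for the cholesterol list, 0.29 for the fatty acid list, -0.25 for YAP/TEAD targets, -0.18 for integrins, 0.18 for HLA class I and -0.84 for the metallothioneins. Other medians moved more with this centring, the histone genes from 0.14 to 0.04 and the BCL2 family from 0.11 to 0.02, and those of the interferon list (-0.03), the splicing factors (0.01) and the mitosis list (0.00) turned sign. Whether base composition has a part in the single genes was not tested.

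**Figure D5:**
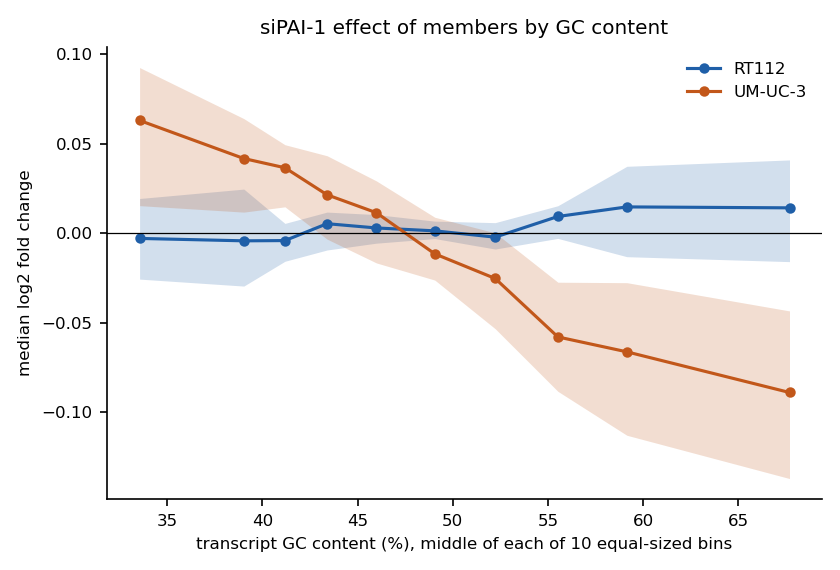
Median change with siPAI-1 (log2 fold change) of member genes in 10 equal-sized bins of transcript GC content (%), in RT112 (blue) and UM-UC-3 (orange). Bands are the range over the 4 pairs of single libraries in a line; UM-UC-3 goes down from 0.06 to -0.09 with GC content and RT112 stays between 0.00 and 0.01.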

How the data were processed

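RNA-seq libraries of RT112 and UM-UC-3 cells treated with Scr or siPAI-1 (75-base single reads) were grouped by their labels. The authors trimmed reads, aligned them with STAR to hg38 and deposited TPM and FPKM values per gene. The submitters' processing notes list STAR 2.5.0 and RSEM 1.2.25, while the methods name featureCounts. The deposited TPM carry no depth, so depth was estimated from steps in the deposited FPKM of short genes, between 20 and 45 M reads. The study compared groups with DESeq2, which needs counts, and those were not used here. Instead limma 3.58.1 (R 4.3.3; lmFit, eBayes with trend, two-sided) was fitted to log2(TPM + 0.1) over all 8 libraries with the 4 groups as coefficients, and p-values were adjusted (Benjamini-Hochberg) over 20274 genes. Genes at 0 in all libraries and 92 spike-ins were left out. Simulated data for the interaction held 200 changed members, with an assumed spread between libraries (dispersion) of 0.005 and 30 M reads. On these the fit over 19850 genes recovered 10% of changed members at 1.5-fold and 51% at 2-fold. It called 67 members, 6 of them unchanged, and also 162 unchanged genes outside the members. Most calls of that fit were thus false in the simulation. The fit over 8578 members alone recovered 65% and 100%, with 178 called and 13 of them unchanged.

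Named by rule are the 8 opposite members in each direction with the largest smaller change. The rule also takes the 6 members with the smallest interaction p in each direction, and up to 3 opposite members per list. Other genes in the text, SREBF1, CYR61 and CAV1 among them, fall outside this rule and were picked as examples of their lists. A few genes, the targeted one among them, are not reported here and still count in the totals. The members and lists were chosen with earlier results of these data known. Locations are from RefSeq (GRCh38.p14) by symbol, found for 82 of the 85 genes named by the rule. Lengths and GC content are from GENCODE release 44 on GRCh37 by identifier, found for 8578 members. Replicate numbers were not used to pair the libraries in the main fit. The replicate differences of Scr and siPAI-1 correlated at 0.00 in RT112 and 0.06 in UM-UC-3. This cannot tell whether libraries of the same number came from the same experiment. Alternatives were another pseudocount (1 or 0.01), FPKM, median-ratio rescaling, a fit over members alone, members of at least 1 or 10 TPM, eBayes without trend, a replicate block, each library left out in turn and, added later, centring by GC content or length. Python 3.11.15 was used for summaries and plots.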

Additional observations from a re-analysis of the deposited data

Results flagged for a closer look

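Mean levels of 3 lists had both siPAI-1 libraries on opposite sides of both Scr libraries in the 2 lines, and the difference at the level of the list was not tested. For the metallothioneins the change of the mean log2 level was -0.54 in RT112 and 0.26 in UM-UC-3, a difference of -0.80. For cell-cell junctions it was -0.17 in RT112 and 0.06 in UM-UC-3, a difference of -0.23. CDH2, TJP1 and DSG2 had the largest interactions in size among the 10 junction members, at -1.06, -0.56 and -0.30, and the first of these rests on RT112 siPAI-1 library 1. For the mesenchymal markers, which share CDH2 with the junction list, the change of the mean log2 level was -0.41 in RT112 and 0.10 in UM-UC-3, a difference of -0.51. In RT112 the mean log2 level in siPAI-1 library 2 (4.99) lay just below the Scr libraries (5.01 and 5.02), while library 1 was at 4.23.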

How the results depend on the processing

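The counts at an unadjusted p under 0.05 (383 and 275) were 167 and 112 with eBayes without trend, where 0 members passed the adjusted threshold, and stayed within 1.5 times under the other settings that kept all libraries. The share of these calls with the higher change in RT112 lost its excess under rescaling by the median ratio (360 and 348) and centring by GC content (291 and 296). With the replicate block the counts were 323 and 256, with 0 passing the adjusted threshold, and the block changed no call named here. Under rescaling by the median ratio, opposite members were 346 and 365, so the larger direction turned, as it did without UM-UC-3 Scr library 1. Pearson's r of the changes was -0.066 for members of at least 1 TPM. With each library left out in turn, the counts ran from 322 to 556 and from 260 to 553, those past the adjusted threshold from 0 to 34, and opposite members, for which fewer libraries must stand apart, from 562 to 763 and from 473 to 655. Within a single line 0 members passed the adjusted threshold with all libraries (limma; 652 in RT112 and 587 in UM-UC-3 had an unadjusted p under 0.05), and with each library left out in turn 0 to 75 did in RT112, the 75 without RT112 siPAI-1 library 2, and 0 to 6 in UM-UC-3. The cause was not tested. The single-line counts at an unadjusted p are for members, and the share over all genes tested was not worked out. Of the interactions of the 85 genes named by the rule, 0 reversed under any setting. Most of these genes were named as opposite, with groups apart in each line. Leaving out 1 library could not reverse those, so their kept sign says little about how firm they are. List medians moved by more than their spread over single libraries in 33 of 760 cases. With 2 libraries a group, small differences may not be detectable after adjustment in the fit over all genes.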
